A study of Homo sapiens with 4 samples.

Results

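The effect of introducing FBP1 into MDA-MB231 cells was read from a pair of arrays, MDA-MB231 cells expressing FBP1 and control MDA-MB231 cells, which are 2 of the 4 arrays in the series. The remaining arrays are the same pair in Hs578T, and they appear here only as a reference. Both are established human cell lines, labelled as basal-like breast cancer. FBP1 was introduced into each, stable clones were picked, and the control cells are labelled only as control cells of the line. The control's vector, and whether the FBP1 cells were 1 clone or several, cannot be read from the labels. All cells were grown with serum and harvested during log growth. Every value is a log2 expression value, and a change is the FBP1 array minus the control array, so that 1 unit is a 2-fold difference. Each gene was represented by the probe set with the highest mean among those annotated to that gene alone, which gave 18417 genes. Of these, 15946 had a mean over the 4 arrays of at least 6.16, the 25th percentile over all probe sets, and counts below are over those genes. With 1 array a side there is no replicate, no error and no test, and changes are described by their size. In such whole-culture RNA, fewer cells making a transcript and less transcript per cell cannot be told apart.

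FBP1 encodes fructose-1,6-bisphosphatase, the gluconeogenic enzyme that turns fructose-1,6-bisphosphate into fructose-6-phosphate and so opposes phosphofructokinase in glycolysis. Breast cancers of the basal type are known for low FBP1, and its return to such cells has been studied as a restraint on glycolysis. Many of the genes described here belong to sterol and fatty acid synthesis, which is switched on by the SREBP transcription factors. SREBPs are held in the endoplasmic reticulum by INSIG proteins when sterols are plentiful, and are carried by SCAP to the Golgi and cut free by the MBTPS proteases when sterols are scarce.

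The array medians over all probe sets were 7.86 for the control and 7.85 for FBP1, against 7.83 and 7.84 in Hs578T. Across probe sets the MDA-MB231 arrays correlated at r = 0.9962, a description only, since probe sets are not independent. The labelled identity was checked against marker genes. VIM (13.72 in the control and 13.71 with FBP1), CD44 (13.73 and 13.68), CAV1 (13.92 and 13.81) and EGFR (11.02 and 11.05), which mark basal and claudin-low lines, were far above the array median. The estrogen receptor gene ESR1 (6.64 and 6.77) was below it, the E-cadherin gene CDH1 (7.64 and 7.90) was close to it, and the progesterone receptor gene PGR, the leukocyte gene PTPRC (4.61 and 4.66) and the T cell gene CD3E did not pass the filter. Leukocyte markers were not uniformly absent. Of 9 with a probe set, 6 passed the filter, among them CD68 (11.35 and 11.60) and CD14 (8.30 and 7.98). The luminal factor gene GATA3 was at 9.05 and 8.94, and the keratin genes KRT8 (13.10 and 13.02) and KRT18 (12.58 and 12.65) were among the brightest, so luminal markers were not uniformly low. Basal markers were not uniformly high either. The basal keratin gene KRT5 (6.93 and 6.80) was below the array median, and the P-cadherin gene CDH3 (8.18 and 7.93) was close to it.

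FBP1 itself was at 9.83 in the control array and at 13.07 in the FBP1 array, a change of 3.24 or 9.44-fold. The control cells were thus already 3.48 log2 units above the Hs578T control (6.35), while the FBP1 arrays of both lines ended at 13.07 and 13.35. No other gene of gluconeogenesis approached this change. The muscle isoenzyme FBP2 (5.87 and 6.12) and the glucose-6-phosphatase gene G6PC1 (5.20 and 5.04) did not pass the filter. The pyruvate carboxylase gene PC went from 10.20 to 10.41 (0.21). The phosphoenolpyruvate carboxykinase genes PCK1 (-0.20) and PCK2 (0.06), the ubiquitous glucose-6-phosphatase gene G6PC3 (0.06) and its transporter gene SLC37A4 (0.07) lay inside the central 95% of all genes' changes, which ran from -0.32 to 0.33.

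Next the whole distribution of changes was examined. The changes of the 15946 genes had an SD of 0.163, against 0.255 in Hs578T, and 48.2% were above 0 and 51.8% below. At least 2-fold higher were 7 genes (0.0439%), FBP1 included, and at least 2-fold lower were 3 (0.0188%); at 1.5-fold these were 48 genes (0.301%) and 52 genes (0.326%). In Hs578T the same thresholds gave 0.288% and 0.458% of genes at 2-fold and 1.39% and 1.69% at 1.5-fold, higher and lower. The scatter varied with signal. Between 7 and 8 the SD was 0.18 (2869 genes), and between 11 and 12 it was 0.12 with a central 95% from -0.27 to 0.19 (1727 genes).

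The higher genes had a lower median control value than the lower genes. Of the 48 higher genes, 22 had a control value under 7 and 2 had one of 10 or more, the endothelin gene EDN1 and the cytokine gene IL1B. Their median control value was 7.13. Of the 22, 11 were under 6, where 129 genes passed the filter only through higher values on another array. Changes of those 129 genes had an SD of 0.39 and a median of 0.154, so the 11 support nothing. The other 11 were among 2023 genes from 6 to 7. Over all levels 0.301% of genes were higher. Of the 52 lower genes, 5 were under 7 and 18 were at 10 or more, with a median of 8.84. The 5 were 2 of the 129 genes and 3 of the 2023. The 18 were 8 of 2552 genes from 10 to 11 and 5 of 1727 from 11 to 12. Above these they were 4 of 794 genes from 12 to 13 and 1 of 259 at 13 and over. Over all levels 0.326% of genes were lower, so the share at 10 or more was near the background. Of those 18 brighter lower genes, 10 belong to the lists of sterol synthesis, fatty acid synthesis and SREBP regulators. Among all 15946 genes, the synthesis lists hold 33 and the regulator list 8. Their share among all genes at 10 or more was not counted, and the lists were chosen with earlier results of these data known.

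**Figure D1:**
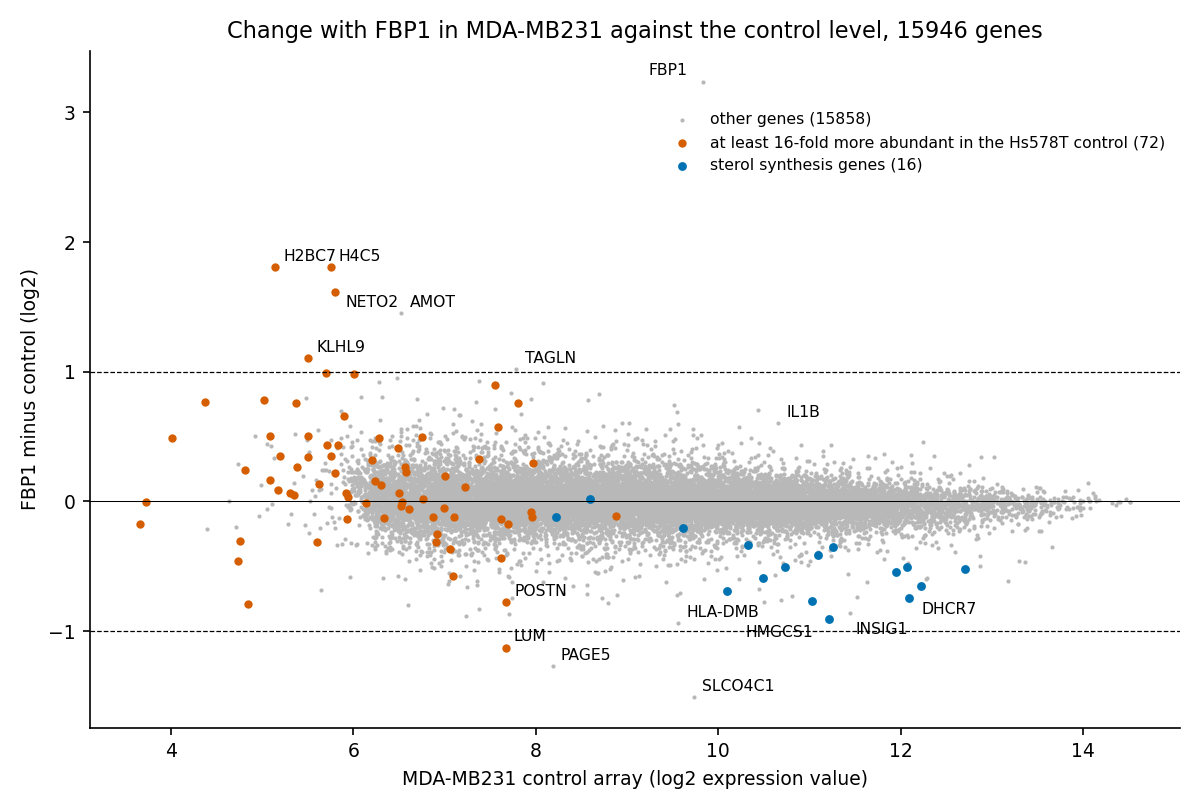
Change with FBP1 in MDA-MB231 (FBP1 minus control, log2, vertical axis) against the control array's log2 value (horizontal axis), 1 point a gene, 15946 genes; dashed lines mark 2-fold, orange marks the 72 genes at least 16-fold more abundant in the Hs578T control and blue the 16 sterol synthesis genes. Of the genes at least 2-fold higher, FBP1 and TAGLN lie above a control value of 7 and the others under it, whereas the blue points, all but one of them below 0, lie between 8.23 and 12.7.

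Beyond FBP1, the 2-fold higher genes were H2BC7 (5.14 in the control and 6.95 with FBP1), H4C5 (5.75 and 7.56), NETO2 (5.80 and 7.41), AMOT (6.53 and 7.98), KLHL9 (5.51 and 6.61) and TAGLN (7.79 and 8.81). H2BC7 and H4C5 encode core histones, NETO2 an auxiliary subunit of kainate receptors, AMOT a junctional scaffold that binds YAP, KLHL9 a substrate adaptor of a ubiquitin ligase and TAGLN the actin-binding protein transgelin. Only AMOT and TAGLN of these 6 began above a control value of 6. Just under 2-fold were FAR2 (0.99), which makes fatty alcohols, and TLE4 (0.98), a Groucho corepressor. Among the next in rank, the formin gene DIAPH2 (6.49 and 7.44), the ubiquitin ligase gene RNF128 (7.38 and 8.31), the neuritin gene NRN1 (6.28 and 7.20), the deubiquitinase gene UCHL1 (7.73 and 8.57) and the integrin beta-3 gene ITGB3 (8.70 and 9.53) were each higher by 0.83 to 0.95. At brighter signal, ADAMTS1, a secreted metalloprotease, went from 9.51 to 10.25, the adenylate kinase gene AK5 from 9.55 to 10.25, EDN1 from 10.44 to 11.14 and IL1B from 10.66 to 11.26. For these, the central 95% at the same control level ended at 0.29 or 0.23.

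The 2-fold lower genes were SLCO4C1, an organic anion transporter (9.73 in the control and 8.23 with FBP1, 2.85-fold lower), PAGE5, a cancer-testis antigen of the X chromosome (8.19 and 6.92), and LUM, the matrix proteoglycan lumican (7.67 and 6.54). SLCO4C1 has a second probe set, which was dim and near-equal on both arrays (5.77 and 5.76), so the change rests on 1 probe set. Just short of 2-fold was HLA-DMB, which loads peptides on class II molecules (9.56 and 8.62), and its second probe set gave a similar change of -0.87 against -0.94. Then came HMGCS1 (-0.90), the antiviral gene RSAD2 (-0.88), the complement factor I gene CFI (-0.87) and INSIG1 (-0.86). Further down were POSTN, a matricellular protein (-0.78), TMEM154 (10.51 and 9.73), the endothelial lipase gene LIPG (10.68 and 9.93), the receptor gene PLXDC2 (10.80 and 10.07), the epidermal caspase gene CASP14 (9.55 and 8.83) and the nuclear receptor gene RORB (9.58 and 8.87). The osteoprotegerin gene TNFRSF11B (10.44 and 9.77) and the EGF receptor ligand gene EREG (11.63 in the control, -0.62) were also at least 1.5-fold lower.

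Sterol synthesis genes were lower as a group. Of 16 synthesis genes that passed the filter, 15 were below 0, 6 were at least 1.5-fold lower, and 13 were below the 2.5th percentile of all genes, where 2.5% of genes lie on each side. The median was -0.512. All 13 were also below the range that held the central 95% of genes at their own control level. In Hs578T, where 54.9% of all genes were above 0, 14 of the 16 were above 0 and the median was 0.191, a contrast between lines that was not tested. In the control arrays these genes differed between the lines by -0.85 to 1.62 (Hs578T minus MDA-MB231).

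Along the mevalonate arm, the thiolase gene ACAT2 was at 11.09 in the control and 10.67 with FBP1 (-0.41). HMGCS1, which makes HMG-CoA, was at 11.21 and 10.31 (-0.90, 1.87-fold lower). The mevalonate kinase gene MVK was at 10.09 and 9.40 (-0.69). Its neighbour in the pathway, the phosphomevalonate kinase gene PMVK, was the 1 member not below 0 (8.59 and 8.61), and the decarboxylase gene MVD was at 9.61 and 9.40 (-0.21). The isomerase gene IDI1 was at 12.22 and 11.57 (-0.65), and the farnesyl diphosphate synthase gene FDPS at 10.73 and 10.22 (-0.50). The lower values spanned the arm from its first condensing steps to farnesyl diphosphate, but not every enzyme between them.

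From squalene to cholesterol, 9 of 9 measured genes were below 0. The epoxidase gene SQLE was at 11.03 in the control and 10.26 with FBP1 (-0.77), and the cyclase gene LSS, which closes the sterol rings, at 10.49 and 9.89 (-0.59). The demethylase gene CYP51A1 was at 11.95 and 11.41 (-0.54), and its second probe set at 11.94 and 11.36 (-0.58). The oxidase gene MSMO1 (12.70 and 12.18), the dehydrogenase gene NSDHL (11.26 and 10.91), the isomerase gene EBP (10.32 and 9.99) and the desaturase gene SC5D (12.07 and 11.56) were lower by 0.34 to 0.52. DHCR7, the last reductase on the way to cholesterol, was at 12.09 and 11.35 (-0.74). The smallest change was that of the reductase gene TM7SF2 (8.23 and 8.11), which was also the dimmest of the 9.

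The regulators of this pathway were divided. INSIG1, itself a target of SREBPs, was at 11.44 in the control and 10.58 with FBP1 (-0.86). SREBF2 (9.83 and 9.43) and SREBF1 (9.69 and 9.32), which encode the SREBPs, differed by -0.39 and -0.37, and each lay below the 2.5th percentile. The escort gene SCAP (10.04 and 10.10), the protease genes MBTPS1 (11.53 and 11.51) and MBTPS2 (9.92 and 10.01) and INSIG2 (9.61 and 9.70) were within 0.09 of control. RNF139, a ubiquitin ligase of the same membrane, was at -0.19. Among 7 genes of sterol uptake and transport, STARD4, a soluble sterol carrier, was at 10.08 and 9.57 (-0.51), and the remaining 6 ran from -0.14 (MYLIP) to 0.01 (SCARB1). The LXR targets ABCA1 (-0.31) and ABCG1 (0.20), which export sterol, differed in opposite directions.

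Promoter sequences of 5 of these genes are shown because the genes were lower together and because SREBPs are known to act beside the CCAAT-binding factor NF-Y. The windows are the 250 bases upstream of a RefSeq start site in GRCh38.p14, written 5′ to 3′ on the gene's strand: SREBF2 at chr22:41832855-41833104 (plus strand), HMGCS1 at chr5:43313413-43313662 (minus strand), MVK at chr12:109573544-109573793 (plus strand), STARD4 at chr5:111512536-111512785 (minus strand) and INSIG1 at chr7:155297628-155297877 (plus strand). Capitals mark matches, on either strand, to ATTGGCTG (SREBF2, HMGCS1, MVK and, on the opposite strand, STARD4), to the sterol regulatory sequence TCACCCCAC (SREBF2) and to the palindrome TCACGTGA (INSIG1).
SREBF2: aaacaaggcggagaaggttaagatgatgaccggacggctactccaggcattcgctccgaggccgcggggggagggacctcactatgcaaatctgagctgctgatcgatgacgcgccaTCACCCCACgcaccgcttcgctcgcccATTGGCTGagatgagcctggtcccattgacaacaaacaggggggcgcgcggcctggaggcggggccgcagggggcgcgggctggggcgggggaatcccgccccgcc
HMGCS1: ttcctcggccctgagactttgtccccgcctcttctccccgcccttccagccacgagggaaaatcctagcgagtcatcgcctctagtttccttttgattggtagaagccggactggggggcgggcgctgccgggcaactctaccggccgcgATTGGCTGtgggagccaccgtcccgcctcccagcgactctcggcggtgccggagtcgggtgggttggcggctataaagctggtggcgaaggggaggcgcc
MVK: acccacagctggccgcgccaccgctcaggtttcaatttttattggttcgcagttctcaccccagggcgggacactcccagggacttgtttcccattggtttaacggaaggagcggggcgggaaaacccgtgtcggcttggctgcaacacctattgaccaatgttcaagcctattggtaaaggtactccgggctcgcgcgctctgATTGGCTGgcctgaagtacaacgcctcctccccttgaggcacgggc
STARD4: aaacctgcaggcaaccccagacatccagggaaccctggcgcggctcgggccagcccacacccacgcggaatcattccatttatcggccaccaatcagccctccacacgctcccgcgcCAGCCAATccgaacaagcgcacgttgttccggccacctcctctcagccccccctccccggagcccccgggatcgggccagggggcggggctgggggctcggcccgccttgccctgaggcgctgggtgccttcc
INSIG1: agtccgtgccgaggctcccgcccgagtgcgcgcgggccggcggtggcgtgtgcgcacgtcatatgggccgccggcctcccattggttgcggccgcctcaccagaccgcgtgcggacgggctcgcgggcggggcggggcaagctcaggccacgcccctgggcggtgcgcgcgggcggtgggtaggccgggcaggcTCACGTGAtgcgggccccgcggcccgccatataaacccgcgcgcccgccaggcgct
The SREBF2 matches begin 133 and 106 bases before the start, that of HMGCS1 100, that of MVK 46, that of STARD4 133 and that of INSIG1 56. HMGCS1 has 2 windows in the table, of which the one with a match is shown.

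Shares of promoters with these letters were counted on both strands among 12476 genes that passed the filter and had a window. CCAAT was present in 12 of 14 sterol synthesis genes (85.7%), against 40.2% of all these genes and 32% of all 35116 windows. ATTGGCTG, which holds CCAAT on its other strand and was picked after these windows had been looked at, was present in 9 of the 14 (64.3%), against 5.96% of genes and 3.52% of windows. Those 9 were HMGCS1, MVK, MVD, IDI1, FDPS, TM7SF2, MSMO1, NSDHL and SC5D. They include both large changes and the small one of TM7SF2. In the fatty acid list, 9 of 16 genes had CCAAT (56.2%) and 3 of 16 had ATTGGCTG (18.8%). Of 7 SREBP regulator genes with a window, 2 had CCAAT (28.6%) and 1 had ATTGGCTG (14.3%). TCACCCCAC was in 0.497% of genes and 0.362% of windows, and of the sterol, fatty acid and regulator genes only SREBF2 had it. TCACGTGA was in 1.72% of genes and 0.854% of windows, and of the same genes only INSIG1 had it. A match describes letters and is no sign of binding.

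In fatty acid synthesis, 15 of 17 genes were below 0, with a median of -0.226, and 3 were at least 1.5-fold lower. These were the phosphatidate phosphatase gene LPIN1 (11.52 in the control and 10.78 with FBP1), the stearoyl-CoA desaturase gene SCD (13.18 and 12.56) and the delta-6 desaturase gene FADS2 (12.28 and 11.68). The synthase gene FASN (10.54 with FBP1, -0.46), the citrate carrier gene SLC25A1 (11.32 and 10.98, -0.33) and the acetyl-CoA synthetase gene ACSS2 (10.44 and 10.11, -0.32) were also below the 2.5th percentile. The carboxylase gene ACACA (10.22 and 9.92), the citrate lyase gene ACLY (11.97 and 11.75) and the desaturase gene FADS1 differed by -0.30, -0.23 and -0.23. ELOVL7 (0.07) and the acyltransferase gene GPAM (0.06) were the 2 above 0. The Hs578T median was 0.132, with 11 of 17 above 0. Taking sterol and fatty acid synthesis as one, 30 of 33 genes were below 0 and 19 were below the 2.5th percentile. Genes of fatty acid oxidation and lipid droplets did not follow: 11 of 21 were above 0 with a median of 0.032, among them DGAT2 (0.29), which makes triglyceride.

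**Figure D2:**
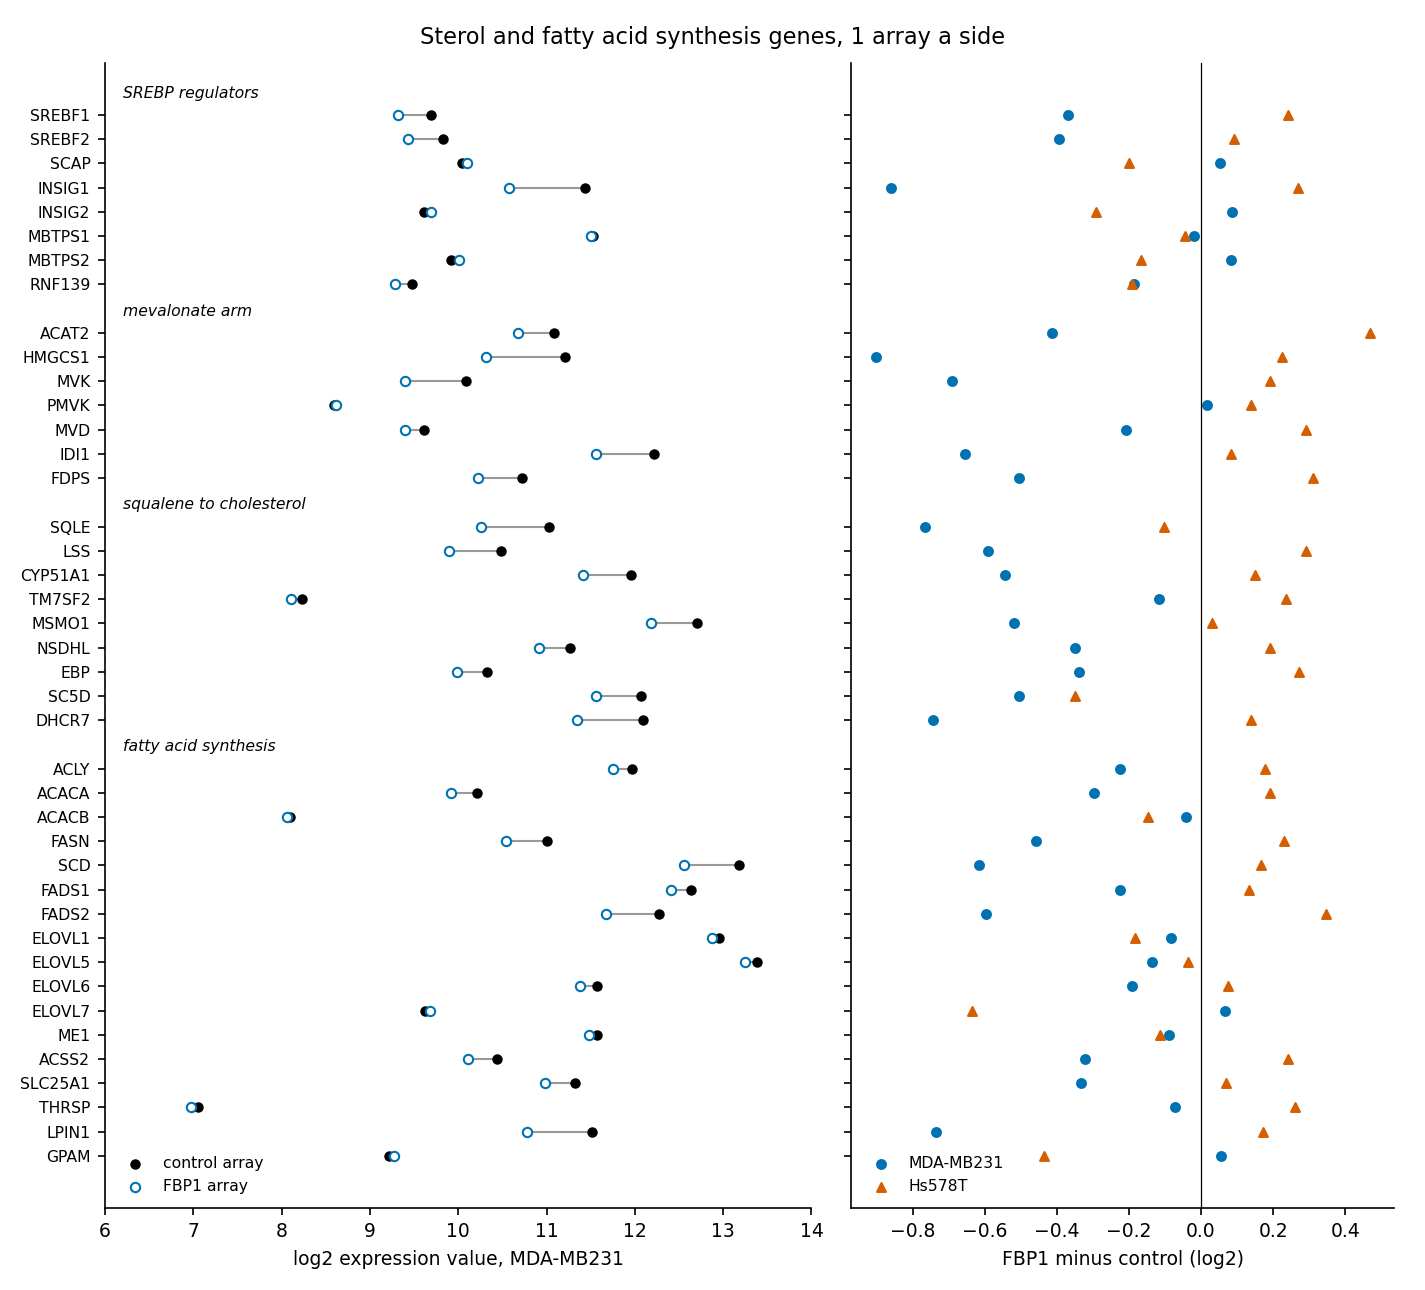
Left, log2 values of SREBP regulators and of sterol and fatty acid synthesis genes on the MDA-MB231 control (black) and FBP1 (open) arrays; right, the change with FBP1 in MDA-MB231 (circles) and Hs578T (triangles), 1 array a side. From HMGCS1 to DHCR7 the open circles lie to the left of the black ones, with PMVK as the exception, and most triangles lie above 0.

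Carbon metabolism nearer to FBP1 showed smaller differences. The 22 glycolysis and glucose transport genes had a median of 0.001, with 11 above 0 and 11 below. The hexokinase gene HK2 was at 10.00 in the control and 10.44 with FBP1 (0.44), and PFKFB4, which sets the level of the allosteric regulator that inhibits fructose-1,6-bisphosphatase, was at 9.49 and 9.15 (-0.35). The phosphofructokinase genes PFKM (0.11) and PFKL (0.05) and the glyceraldehyde-3-phosphate dehydrogenase gene GAPDH (14.51 on both) stayed close to 0. In the pentose phosphate pathway, 7 of 10 were above 0 and the median was 0.101. RPIA (0.28), RPE (0.20) and TALDO1 (0.16) of its non-oxidative branch were higher and the transketolase gene TKT was lower (-0.21), all inside the central 95% of genes; TKTL1 (6.49 and 6.85) was past it. The 18 TCA cycle genes had a median of 0.05 and ranged from -0.06 to 0.17, and the 22 complex I genes had one of 0.02 and ranged from -0.09 to 0.20. The serine and one-carbon list (9 genes) had a median of -0.053, the mitochondrial transcription list (10 genes) one of 0.037 and the mitochondrial ribosome list (29 genes) one of 0.009. The hexosamine and glycogen list (11 genes) had a median of -0.003, whose sign turned under quantile normalization and median centring. TXNIP, a glucose-responsive brake on glucose uptake, was at 12.29 and 11.70 (-0.59), while the other MondoA targets ARRDC4 (-0.05) and ARRDC3 (0.02) hardly differed.

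**Figure D3:**
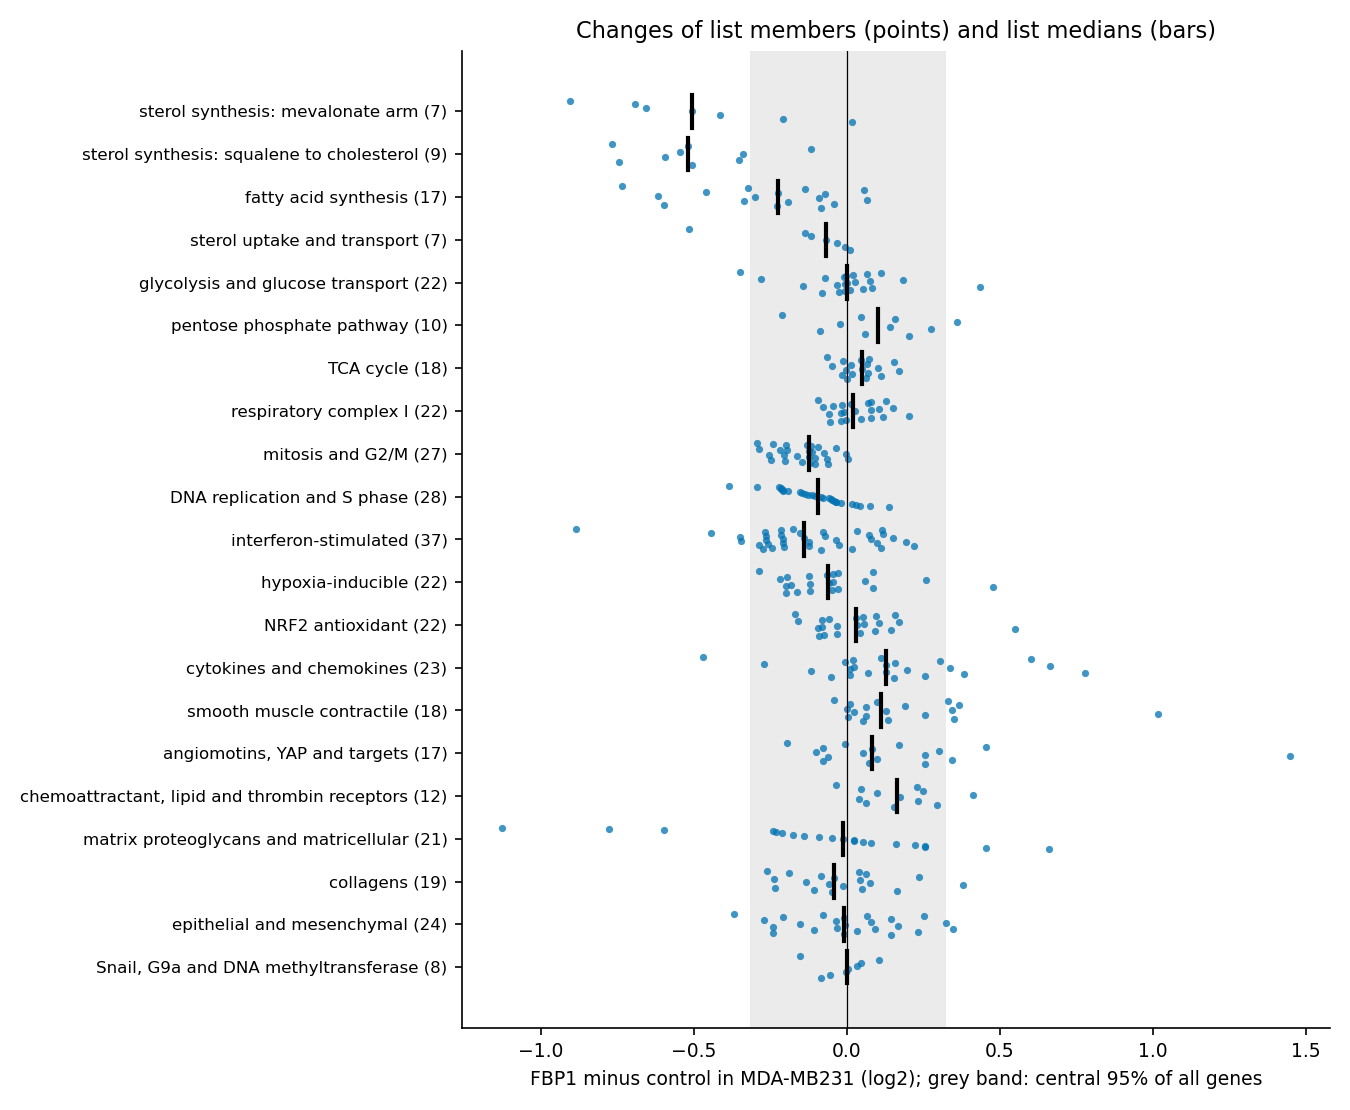
Change with FBP1 in MDA-MB231 (log2, horizontal axis) of the members of 21 gene lists, 1 point a gene, with the list median as a black bar and the number of genes in brackets; the grey band is the central 95% of all genes, -0.32 to 0.33. Both sterol synthesis lists have their median outside the band, mitosis genes form a narrow group just below 0, and the energy metabolism lists lie around 0.

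Most proliferation genes were slightly lower. Of 55 genes of S phase and mitosis, 49 were below 0, against 51.8% of all genes, with a median of -0.12. Genes with control values of 10 to 13 had medians of -0.019 to -0.032. Of the 55, 4 were below the central 95% of genes at their own control level. None was past 1.5-fold, and 1 was below the 2.5th percentile, CDC6, which licenses replication origins (11.85 in the control and 11.47 with FBP1). Within mitosis, 26 of 27 were below 0, led by the kinetochore motor gene CENPE (11.33 and 11.04) and the checkpoint kinase gene TTK (11.34 and 11.06). In Hs578T, 49 of the 55 were above 0 with a median of 0.194, a difference that was not tested. The p53 list (17 genes) had a median of -0.006, whose sign turned with quantile normalization and with median centring; CDKN1A was at -0.29 and the stress cytokine gene GDF15 at 0.45.

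Replication-dependent histone genes, whose transcripts peak in S phase, split by signal. Of 40 that passed, 32 were below 0 with a median of -0.301, and 18 were below the 2.5th percentile. Among 29 with a control value of 8 or more, 28 were below 0 and the median was -0.388; among 11 dimmer ones, 4 were below and 7 above, with a median of 0.013. By family, medians were -0.161 for H1 (2 genes), -0.354 for H2A (8), -0.432 for H2B (14), -0.204 for H3 (8) and -0.215 for H4 (8). H2BC11 was at 8.73 in the control and 7.98 with FBP1 (-0.75), H2BC17 at 9.13 and 8.55, and H2BC3 at 11.43 and 10.87. Against this, H2BC7 and H4C5 were the largest increases after FBP1, H4C4 was at 0.50 and H2BC8 at 0.32. In Hs578T the family's median was 0.026. Histone genes are nearly identical in sequence and their probes can bind each other's transcripts, so single members are uncertain. Among all windows of 25 neighbouring genes the lowest median also lay here: the 25 genes from HMGN4 to ZNF165 on chromosome 6, 14 of them on the histone list, had a median of -0.32. Among the 15260 of 15367 windows that held no list histone, the medians ran from -0.192 (ZNF90 to ZNF681, chromosome 19) to 0.151 (HINFP to CRTAM, chromosome 11). The other neighbours of the histone genes were not assessed apart from them.

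**Figure D4:**
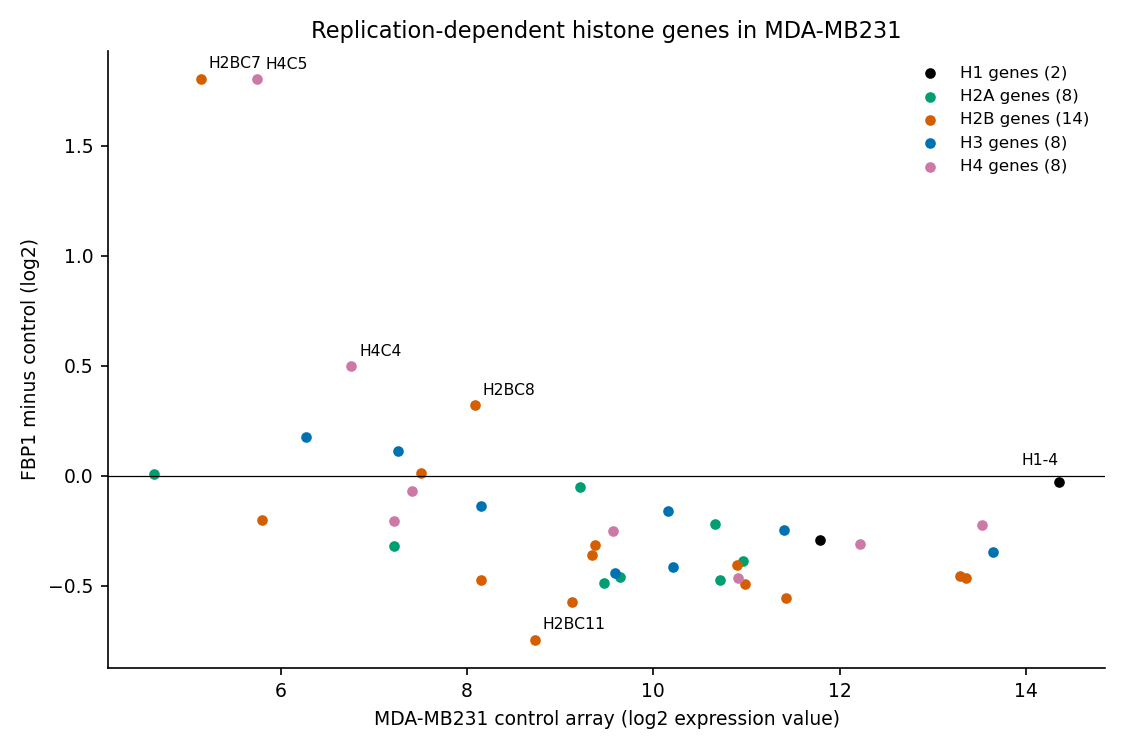
Change with FBP1 in MDA-MB231 (log2, vertical axis) of 40 replication-dependent histone genes against their control value (log2, horizontal axis), coloured by family, 1 point a gene. Of the 29 genes at control values of 8 or more, H2BC8 is the one above 0; H2BC7 and H4C5, at 1.81 and 1.80, are among the dimmest.

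H2BC7, H4C5, NETO2, KLHL9, FAR2 and TLE4 share a further property, their abundance in the other line. On the Hs578T control array they were at 12.03, 11.98, 12.70, 11.19, 11.35 and 10.70, between 4.69 and 6.90 above the MDA-MB231 control. At least 16-fold more abundant there were 72 of the 15946 genes. Of these, 45 were above 0 in MDA-MB231, against 48.2% of all genes, with a median of 0.129. Among them were 12 of the 48 higher and 3 of the 52 lower genes at 1.5-fold. Of the 72, 34 had a control value under 6 in MDA-MB231, and these held 27 of the 45, 9 of the 12 and 1 of the 3. Other genes under 6 were above 0 in 63 of 95, with a median of 0.131. Genes with a control value under 6 in MDA-MB231 passed the filter, a mean over the 4 arrays, only through higher values on another array, so their counts support nothing. Of the 72 genes, those with a control value of 6 to 7 were above 0 in 11 of 20, with a median of 0.043. Those of 7 and over were above 0 in 7 of 18, with a median of -0.114. Among other genes at these levels, 1090 of 2003 and 6485 of 13776 were above 0. On a linear scale the increase was 2.12% of the Hs578T control level for H2BC7, 3.37% for H4C5, 1.74% for NETO2, 2.28% for KLHL9, 2.02% for FAR2 and 3.95% for TLE4. These 6 were picked as large increases. Over all 72 genes the share ran from -1.81% (LUM) to 3.95% with a median of 0.274%. Among the 24 with an Hs578T control value of 12 or more, 12 were above 0 in MDA-MB231 and 12 below. Versican (VCAN), at 13.07 in the Hs578T control, was at 5.90 and 6.57 (0.409% of the Hs578T level), and periostin (POSTN), at 13.83 there, was lower with FBP1. The part of this abundance in the changes was not tested. Near KLHL9 on chromosome 9p21, the phosphorylase gene MTAP was at 5.97 and 6.54 (0.58), CDKN2A at 7.0 and 7.32 (0.32), CDKN2B at 8.17 and 8.34, FOCAD at 7.48 and 7.16 (-0.33) and MLLT3 at 9.92 and 9.78. At 7 genes that passed, this list had a median of 0.166, and -0.06 with the filter at the 50th percentile. KLHL9 and MTAP (9.22 in the Hs578T control), both under 6 in the MDA-MB231 control, are among those 7.

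**Figure D5:**
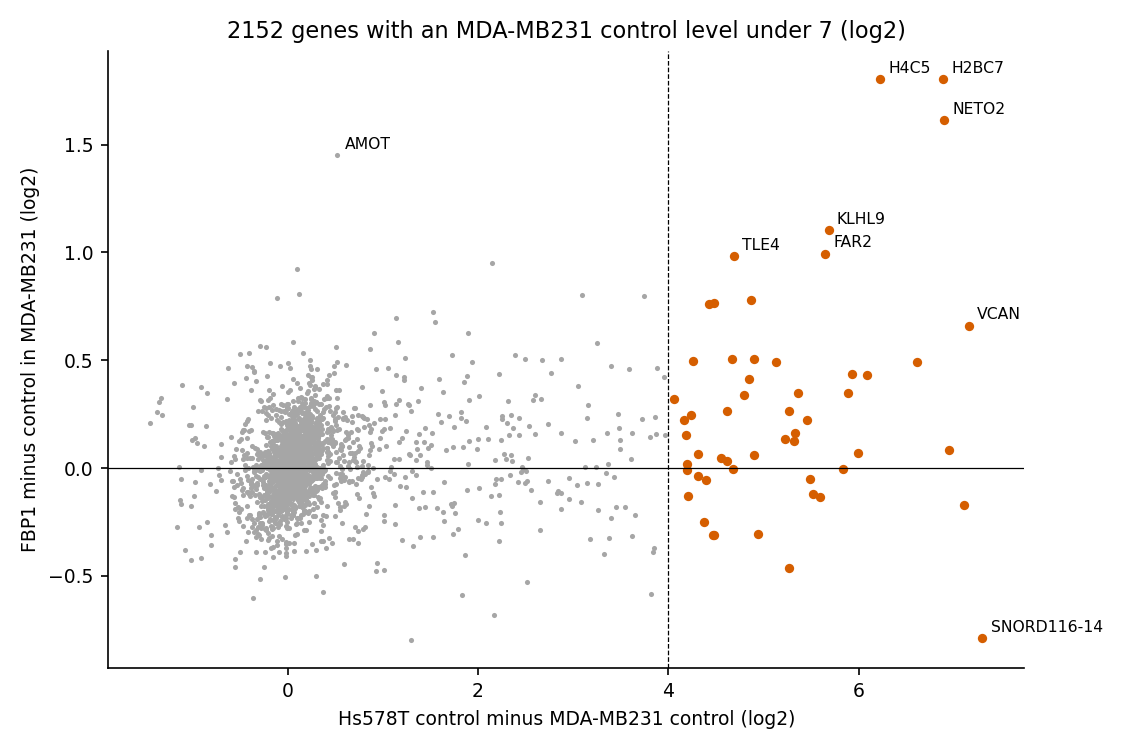
Change with FBP1 in MDA-MB231 (log2, vertical axis) against the difference between the control arrays (Hs578T minus MDA-MB231, log2, horizontal axis) for the 2152 genes with an MDA-MB231 control value under 7; orange marks the 54 genes at or past the dashed line at 4 (16-fold). The orange points run from H2BC7 and H4C5 near 1.8 to SNORD116-14 at -0.79, whereas AMOT stands apart at the left. Of the 54, 34 had a control value under 6 and passed the filter only through higher values on another array, so their direction supports nothing.

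Genes of the contractile cytoskeleton were higher as a group. Of 18 smooth muscle contractile genes, 17 were above 0, against 48.2% of all genes, with a median of 0.114. TAGLN (1.02) was the 1 gene past 1.5-fold. The smooth muscle actin genes ACTA2 (8.41 in the control and 8.77 with FBP1) and ACTG2 (13.02 and 13.37), the myosin kinase gene MYLK (9.29 and 9.64) and the tropomyosin gene TPM1 (10.85 and 11.18) were the other 4 in the upper 2.5% of all genes. In Hs578T the median was 0.199. Among 17 angiomotin and YAP pathway genes the median was 0.083. AMOT (1.45) led, and the secreted YAP targets CCN1 (12.24 and 12.70) and CCN2 (12.32 and 12.57), the repeat protein gene ANKRD1 (12.88 and 13.22) and the tissue factor gene F3 (11.27 and 11.57) were above 0, while the coactivator gene WWTR1 was at -0.19. Integrin and laminin genes were divided, with a median of 0.009 over 17, ITGB3 at 0.83 and the laminin gene LAMA5 at -0.35.

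For the counts that follow, 48.2% of all genes were above 0, 51.8% were below 0 and 0.301% were at least 1.5-fold higher. Cytokine and chemokine genes were mostly higher, 18 of 23 with a median of 0.128, and 3 were past 1.5-fold. These were IL32 (8.58 in the control and 9.36 with FBP1), IL1A (7.17 and 7.84) and IL1B (10.66 and 11.26), of which the last pair encode interleukin-1. IL24 (0.38), IL18 (0.34) and CXCL8 (0.30), a neutrophil attractant, followed. The adhesion gene VCAM1 (8.57 and 8.10) and IL6 (9.75 and 9.48) were lower. Of 12 chemoattractant, lipid and thrombin receptor genes, 11 were above 0 with a median of 0.165, and the largest change was that of F2RL2, a thrombin receptor (6.49 and 6.90). Interferon-stimulated genes were mostly lower, 26 of 37 with a median of -0.14. RSAD2 was at 7.24 and 6.36, SAMD9 at 9.73 and 9.29, IFI44 at 8.46 and 8.11, and SAMD9L at 9.64 and 9.29, but OAS1 (0.22) and MX1 (0.12) were above 0. The interferon-inducible chemokine gene CXCL10, which is on neither list, was at 7.55 and 8.26, higher by 0.71. In class II presentation HLA-DMB stood alone. Of 10 class II genes 8 were above 0, with a median of 0.116, its partner HLA-DMA was at 10.90 in the control (0.10), and the class II activator CIITA at 8.05 and 8.10. The 10 class I presentation genes had a median of -0.085.

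In tryptophan catabolism, the kynureninase gene KYNU was at 8.89 in the control and 8.17 with FBP1 (-0.72), while IDO1 was near-equal (6.70 and 6.69). The dioxygenase gene TDO2 was at 5.97 and 5.38 (-0.58). Both values are under the filter level of 6.16, so TDO2 passed only through Hs578T and its change is uncertain. The list of 8 had a median of 0.053. Matrix genes held 3 of the larger decreases, LUM, POSTN (7.68 and 6.90) and the osteopontin gene SPP1 (9.84 and 9.24), beside an increase of VCAN. VCAN had a control value under 6 and passed the filter only through higher values on another array, so its change is uncertain. The list median was -0.012 over 21 genes, and its sign turned under quantile normalization and without the genes abundant in Hs578T. The 19 collagen genes had a median of -0.04, with COL4A1 at 0.38. Among 22 proteases and inhibitors the median was 0.016, with MMP13 (6.85 and 6.37) and MMP2 (7.06 and 6.69) at the low end and ADAMTS1 and ADAM23 (7.86 and 8.34) at the high end. Of 7 SLCO transporters that passed, SLCO2A1, a prostaglandin carrier (10.63 and 10.06, -0.57), came next to SLCO4C1, and SLCO1B3 (10.93 and 10.89) was near-equal. Among 14 cancer-testis antigens 7 were above 0 and 7 below, from PAGE5 (-1.27) to PAGE2 (5.36 and 5.88). PAGE2 too passed the filter only through Hs578T.

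In basal-like cells FBP1 is known to be silenced by Snail together with G9a and DNA methyltransferase, and genes of that complex and of epithelial and mesenchymal state were examined for that reason. The 8 genes of Snail, G9a and DNA methylation ran from -0.15 (SNAI1, 9.16 in the control and 9.01 with FBP1) to 0.10 (DNMT3A), with G9a (EHMT2) at 0.05 and DNMT1 at -0.05. Over 24 epithelial and mesenchymal genes, 11 were above 0 and 13 below. The median was -0.007, and its sign turned under quantile normalization, median centring and averaging of probe sets, and without members that another list holds. The claudin gene CLDN7 (9.84 and 10.19), the N-cadherin gene CDH2 (7.38 and 7.70) and CDH1 (0.25) were higher, and MMP2, the keratin gene KRT19 (12.26 and 11.99) and CLDN3 (8.97 and 8.73) were lower, so that neither class was on one side. The luminal factor gene SPDEF was at 9.99 and 9.46 (-0.53), the largest change among 14 luminal genes. Of 8 stem-like markers, PROCR, the protein C receptor, was at 9.26 and 9.66, and CD44 and CD24 were within 0.05 of control.

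Stress pathways differed little. The 22 antioxidant genes of the NRF2 programme had a median of 0.032, with 12 above 0. The reductase gene AKR1C2 was at 7.78 in the control and 8.33 with FBP1, while NQO1 was at -0.08; in Hs578T the list's median was -0.507. Of 22 hypoxia-inducible genes, 17 were below 0 with a median of -0.062, from EGLN3 (10.40 and 10.12) to the carbonic anhydrase gene CA12 (9.16 and 9.64). The 19 genes of the ATF4 and unfolded protein responses had a median of 0.002 whose sign turned with averaging of probe sets, with the asparagine synthetase gene ASNS at 0.28. Among early response genes (21, median -0.03), EGR1 was at -0.29 and the phosphatase gene DUSP1 at 0.49. In growth factor signalling, EREG stood out below 0 (-0.62) and EGF (7.56 and 8.01) above among 11 ERBB genes with a median of 0.061. Among 14 FGF genes (median -0.071, whose sign turned with the filter at the 50th percentile), FGF5 (9.51 and 9.98) and FGF1 (8.02 and 8.43) were higher and the feedback inhibitor genes SPRY1 (-0.30) and DUSP6 (-0.26) lower. The TGF-beta list (22 genes, median -0.016) and the Wnt list (25 genes, median -0.012) had signs that turned under quantile normalization, with SMAD7 at -0.37 and WNT7A at -0.41. Protocadherins, whose Hs578T median was -1.063, had one of -0.097 over 19 genes here.

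The larger changes were set beside those in Hs578T. Of the 47 genes other than FBP1 that were at least 1.5-fold higher in MDA-MB231, 26 were also above 0 in Hs578T, and of the 52 lower, 27 were also below 0. Among all genes 54.9% were above 0 there, so both shares were near the background. The lines share no array. At 1.5-fold in both, the genes higher were FBP1, BNC2, ADAMTS1, IL1B and MGAM. Those lower were PLXDC2, KYNU, SPP1, ZNF117 and TXNIP. A further 10 genes passed 1.5-fold in opposite directions. Among all genes, 1.39% were at least 1.5-fold higher in Hs578T and 1.69% lower. BNC2 (5.38 and 6.14) was under the filter level of 6.16 on both MDA-MB231 arrays and passed only through Hs578T.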

How the data were processed

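Total RNA of 4 cultures was hybridised to Affymetrix arrays, 1 array per line and construct. The submitters' processing notes name Affymetrix Expression Console 1.1.2800.28061. No source used here says how probe sets were normalized and summarized. The table deposited by the authors holds log2 expression values of 33297 probe sets, from 2.40 to 14.81, the log2 scale being inferred from that range. Scaling of arrays to a common level would hide a change in total RNA per cell.

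Through GEO's platform annotation 19460 probe sets had 1 gene, 1754 several and 12083 none; 19429 matched a RefSeq gene by Entrez ID, and 0 symbols were updated. Genes whose mean was under the 25th percentile of probe set means were left out (2471 of 18417). Changes, medians and counts were computed with Python 3.11.15, numpy 2.4.6 and pandas 2.3.3, and the code was tested on simulated data. The 58 lists (976 genes, of which 887 had a probe set and 840 passed) and the genes to examine were chosen with earlier results of these data known. Named were FBP1, the 25 largest changes each way, list members past 1.5-fold or among the 8 largest of their list, all members of the sterol, fatty acid, glucose and 9p21 lists as needed, genes past 1.5-fold in both lines, and those next to 2-fold. Marker genes were named for identity. Promoters are RefSeq windows. Alternatives covered the filter, scaling, probe set choice, unnamed probe sets, genes abundant in Hs578T and shared list members. Nothing says that arrays came from separate cultures beyond their labels, and the number of arrays limits the precision of every value.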

Additional observations from a re-analysis of the deposited data

Results flagged for a closer look

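In 10 genes the MDA-MB231 change and the Hs578T change were each at least 1.5-fold and had opposite signs. Among all genes, 1.39% were at least 1.5-fold higher in Hs578T and 1.69% lower. With 1 array a side, these differences between the lines were not tested. Lower with FBP1 in MDA-MB231 and higher in Hs578T were SLCO4C1 (-1.51 in MDA-MB231 and 1.53 in Hs578T), TNFRSF11B (-0.68 and 0.90) and the testis histone gene H2BC1 (-0.60 and 0.75). SLCO4C1 began at 9.73 in MDA-MB231 and at 6.29 in Hs578T, and ended at 8.23 and 7.82, so the FBP1 arrays were closer to each other than the controls.

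The reverse, an increase in MDA-MB231 beside a decrease in Hs578T, was seen for DIAPH2 (0.95 and -0.61), GPNMB (0.90 and -0.93), STEAP1B (0.80 and -0.62), ZNF667-AS1 (0.77 and -1.43), the Notch target HEY1 (0.72 and -0.80), the cathepsin gene CTSO (0.63 and -0.78) and the secretogranin gene SCG5 (0.62 and -0.77). In these 7 genes the MDA-MB231 control was the lower of the controls, from 4.37 for ZNF667-AS1 to 7.56 for GPNMB. ZNF667-AS1 (4.37 and 5.14) was under the filter level of 6.16 on both MDA-MB231 arrays and passed only through Hs578T.

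Some probe sets outside the gene analysis also differed by at least 2-fold in MDA-MB231. Among 6627 with no listed gene that passed the filter, 13 were higher and 22 lower. Among 1509 listed for several genes, 3 were higher and 0 lower. They are unnamed here.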

How the results depend on the processing

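The FBP1 change stayed between 3.23 and 3.25 under every alternative run. With the filter at the 50th percentile, 27 genes were at least 1.5-fold higher and 34 lower. Without the genes that exceeded MDA-MB231 by 16-fold in the Hs578T control, 3 genes were at least 2-fold higher. Over all probe sets, unnamed ones included, 23 were at least 2-fold higher and 25 lower, and 138 and 231 at 1.5-fold. The other counts stayed within 1.5 times. Averaging the probe sets of SLCO4C1 gave a change of -0.76. Of the 50 largest changes, 16 did not pass the 50th percentile filter and 6 did not pass a filter on the MDA-MB231 arrays alone. List medians changed sign for 9 of 57 lists at the 50th percentile, and of 58 lists for 1 with no filter, 2 with the filter on the MDA-MB231 arrays, 8 with quantile normalization, 6 with median centring, 3 with averaged probe sets, 3 without the genes abundant in Hs578T and 3 without shared members; the sterol, fatty acid, histone, mitosis and interferon lists were not among them. No paired analysis was possible because each group has 1 array and no test was made.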

Other observations

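On the X chromosome, 7 of 558 genes were at least 1.5-fold higher with FBP1 (1.25%), against 41 of 15388 genes elsewhere (0.266%). The chromosome was picked after the values were seen. The 7 were AMOT, DIAPH2, RNF128, IRS4, NHSL2, SH3BGRL and BEX4, and SH3BGRL is among the genes abundant in Hs578T. They were higher in MDA-MB231 by 0.67 to 1.45. In Hs578T they ran from -0.61 (DIAPH2) to 0.44 (NHSL2). The median change of all X genes was -0.006, so the difference lay in few genes, and among chromosomes with at least 100 genes the medians ran from -0.024 to 0.013.

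Small groups outside the lists of metabolism and signalling gave values as follows. The decoy receptor gene TNFRSF11B (-0.68) led 9 genes of TRAIL and death receptor signalling, of which 8 were below 0, against 51.8% of all genes. Their median was only -0.024, and TNFRSF11B was the 1 past 1.5-fold. Of 7 glutamate receptor genes NETO2 was the 1 past 1.5-fold. Its control value was under 6, so it passed the filter only through higher values on another array. The receptor subunit gene GRIK2, which NETO2 assists, was at 6.62 in the control and 6.29 with FBP1. In coagulation, thrombomodulin (THBD, 9.31 and 9.74) and the protein C receptor gene PROCR (9.26 and 9.66) were higher, beside F3. The pseudogene FAR2P1 was lower (6.60 and 5.80), whereas FAR2 was higher (5.70 and 6.70). A gene and its pseudogene are similar in sequence, so both values are uncertain. Housekeeping genes (11) had a median of -0.006, whose sign turned with median centring and without members that another list holds.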
